A study of Mus musculus with 8 samples.

Results

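The SoxC, SoxD and SoxE genes encode 3 groups of transcription factors that share the HMG box, a DNA-binding domain, with SOX3. The members were taken by name, as the Sox genes of these groups: *Sox4*, *Sox11* and *Sox12* (SoxC), *Sox5*, *Sox6* and *Sox13* (SoxD), and *Sox8*, *Sox9* and *Sox10* (SoxE). They are 9 of the 23410 rows with a gene symbol on the array, and each has 1 transcript cluster, the set of probes that measures a gene, which no other gene shares. Total RNA of mouse neural progenitor (NP) cultures was measured on 8 Affymetrix arrays. The cultures were embryonic stem (ES) cells grown as monolayers to Day 4 in N2B27, which is free of serum and lets ES cells take a neural fate. One genotype was *Sox3* null R1 ES cells, in which GFP was knocked into the *Sox3* locus. The other, called control here, was R1 ES cells with a conditional *Sox3* allele, named Sox3 positive in the labels and wild type in the methods. There were 4 arrays per genotype, 2 in each of 2 independent differentiation batches. Each genotype is represented by its own targeted ES cells and the labels name no second clone, so genotype and cell line cannot be told apart.

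SoxC factors are known from newly formed neurons, where SOX4 and SOX11 act on neuronal genes, and SoxC proteins activate transcription. SoxD proteins lack an activation domain of their own and work with partners: SOX5 and SOX6 assist SOX9 in cartilage and temper SOX9 and SOX10 in the oligodendrocyte lineage. SoxE factors are known from neural stem cells, glia and the neural crest, the cell population that leaves the dorsal neural tube. SOX9 is needed for neural stem cells and the start of gliogenesis, SOX10 for crest derivatives and myelinating glia, and SOX8 overlaps with both.

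The targeted gene matched the labels. *Sox3* lay at a log2 signal of 8.37 to 8.67 on the 4 null arrays, against 9.73 to 9.92 on the 4 control arrays. The study describes the *Sox3* exon as replaced with GFP in null cells. A signal of the height that remained there does not by itself show an intact transcript. All 6 neural progenitor markers (*Sox1*, *Sox2*, *Pax6*, *Nes*, *Zic1*, *Cdh2*) lay above the median signal of named rows in these cultures. The arrays had medians of 7.63 to 7.70 over named rows and 7.01 to 7.18 over all rows, and no 2 held identical values. For scale, 95% of 1035 transcript clusters of olfactory receptor genes, which NPs are not known to use, lay below a log2 signal of 6.16. All 9 members lay above this level, and 5 of them above the highest of these clusters, 8.54. *Sox5*, *Sox6*, *Sox8* and *Sox10* lay within their full range. On every array these genes also lay below the signal that *Sox3* gave on null arrays. The 6.16 level therefore does not show that they are expressed. Signals of different genes are set by their probes and were not compared with each other.

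The promoters of 7 of the 9 members were found by symbol in a RefSeq table of build GRCm38.p6, all but *Sox9* and *Sox10*. Of 12 listed starts, 4 lie at the outer end of the gene, those of *Sox4*, *Sox11*, *Sox12* and *Sox8*. Shown here are the 250 bases before the start of *Sox8*, a member that differed between the batches, and of *Sox11*, a member that did not pass in either comparison. Both are on the minus strand and written 5′ to 3′, from chr17:25570687-25570936 for *Sox8* and chr12:27342719-27342968 for *Sox11*.
Sox8: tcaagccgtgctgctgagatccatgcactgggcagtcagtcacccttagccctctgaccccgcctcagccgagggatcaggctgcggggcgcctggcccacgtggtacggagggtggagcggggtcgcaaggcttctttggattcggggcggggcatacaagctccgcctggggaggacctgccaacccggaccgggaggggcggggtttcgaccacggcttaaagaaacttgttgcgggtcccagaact
Sox11: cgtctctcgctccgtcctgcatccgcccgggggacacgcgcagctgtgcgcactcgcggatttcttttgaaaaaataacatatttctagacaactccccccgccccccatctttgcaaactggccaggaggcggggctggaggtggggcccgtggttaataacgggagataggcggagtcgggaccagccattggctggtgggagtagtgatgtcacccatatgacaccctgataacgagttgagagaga
Both windows were searched on both strands for AACAAT and ACAAAG, short forms of the HMG box recognition sequence, and a match of 1 cannot overlap a match of the other on the same strand. Neither window holds one, and none of the 4 outer windows does. Over all 12 windows 5 hold at least 1 match, and these 5 are among the 6 windows of *Sox6*, which lie within the gene. Of 32851 promoter windows of this length, 24.0% hold at least 1 of the 2. The *Sox8* window has 65.6% G and C and the *Sox11* window 58%.

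*Sox9* was the only 1 of the 9 genes that passed the test between genotypes, and it was higher in *Sox3* null cells. Its log2 signals in null cells were 10.40 and 10.62 in batch 2 and 10.99 and 10.86 in batch 1, against 9.89 and 9.91 in batch 2 and 10.54 and 10.48 in batch 1 in control cells. Within each batch the null arrays were both higher than the control arrays, whereas across batches the genotypes overlapped, since null arrays of batch 2 lay around the control arrays of batch 1. The mean was 10.7 ± 0.261 in null cells and 10.2 ± 0.353 in control cells (SD, n = 4 each), with batch included in both spreads. With batch as a factor, *Sox9* rose by 0.51 on the log2 scale (standard error 0.07, 95% interval 0.37 to 0.66, adjusted p = 0.00325), which is 1.43-fold with an interval of 1.29 to 1.58. This was rank 64 from the highest among the 23410 log2 fold changes. The test was limma's across all named rows, and a gene passed where its adjusted p was 0.05 or below. By this rule 1.55% of rows passed in either direction, 1.15% as higher in null cells and 0.393% as lower. When at least 1.4-fold was also required, the share was 0.431%, and *Sox9* passed that rule too. The share was 2.31% among rows above the median signal, where 7 of the members lie.

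Ordered by condition, the mean of *Sox9* was 10.93 in null cells of batch 1, 10.51 in null cells of batch 2, 10.51 in control cells of batch 1 and 9.90 in control cells of batch 2. The middle conditions did not differ beyond the spread of their arrays, with SDs of 0.152 and 0.038 (n = 2 each). The genotype difference was 0.61 in batch 2 (95% interval 0.39 to 0.83) and 0.42 in batch 1 (0.23 to 0.60). Neither passed on the 4 arrays of its batch alone, with adjusted p = 0.0934 in batch 2 and 0.140 in batch 1. *Sox9* passed without any 1 of the 8 arrays, with adjusted p from 0.00444 to 0.0180. It missed the threshold with the batch as a random block (0.132), without a batch term (0.562) and in a plain linear model with each gene's own variance (0.121).

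**Figure D1:**
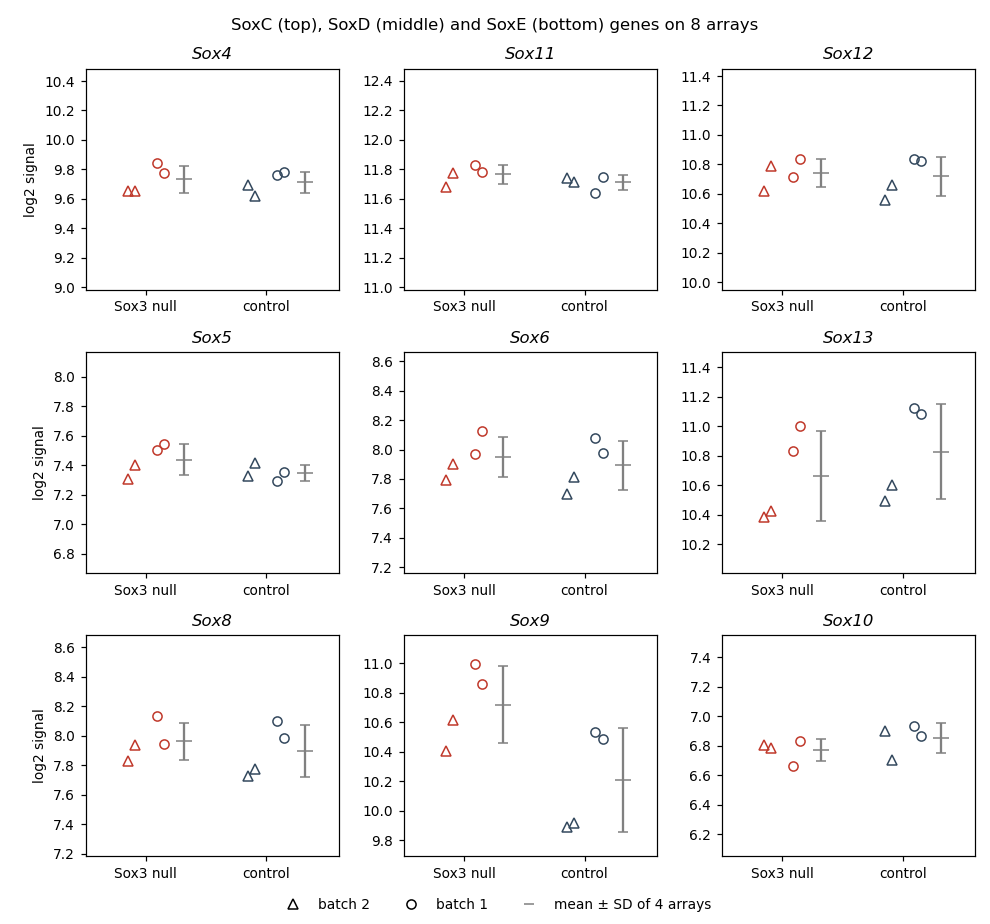
Log2 signal of the 9 genes on each of 8 arrays, with *Sox3* null cells left of control cells, triangles for batch 2, circles for batch 1, and grey bars for the mean ± SD of 4 arrays. Every panel spans the same log2 range. *Sox9* lies at 10.40 to 10.99 in null cells and 9.89 to 10.54 in control cells, and within each batch its null arrays are above its control arrays.

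*Sox9* was set against each of the other 8 members through the difference of their log2 fold changes, a comparison chosen after the values were seen. *Sox9* exceeded the others by 0.42 (*Sox5*) to 0.68 (*Sox13*). Among its own SoxE group it exceeded *Sox8* by 0.45 and *Sox10* by 0.59. In all 8 pairs the null arrays lay above the control arrays within both batches. The 8 pairs share the values of *Sox9*, the member that passed, so they are not separate results. An exact two-sided permutation of genotype within batch, with 36 arrangements, gave p = 0.0556 for each pair. This is the smallest p that the design allows, so no pair could pass at 0.05. The p also does not account for the choice of *Sox9*, and no conclusion is drawn from it.

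The other SoxE genes did not pass. *Sox8* gave log2 signals of 7.83 and 7.94 in batch 2 and 8.14 and 7.94 in batch 1 in null cells, and 7.73 and 7.78 in batch 2 and 8.10 and 7.98 in batch 1 in control cells. The genotypes overlap in batch 1 and are apart in batch 2, and the log2 fold change was 0.07 (95% interval -0.07 to 0.20, adjusted p = 0.739). *Sox10* gave 6.81 and 6.79 in batch 2 and 6.66 and 6.83 in batch 1 in null cells, and 6.90 and 6.70 in batch 2 and 6.94 and 6.87 in batch 1 in control cells. The genotypes are apart in batch 1 and overlap in batch 2. Its mean signal, 6.81, was below the median of named rows, 7.67, and its log2 fold change was -0.08 (95% interval -0.22 to 0.06, adjusted p = 0.675).

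The SoxD genes did not pass either, and *Sox13*, described as a modulator of Wnt signalling, came nearest. *Sox13* gave log2 signals of 10.38 and 10.42 in batch 2 and 10.83 and 11.00 in batch 1 in null cells, against 10.50 and 10.60 in batch 2 and 11.13 and 11.08 in batch 1 in control cells. Both null arrays lay below both control arrays in each batch, the opposite order to *Sox9*. The log2 fold change was -0.17 (standard error 0.05, 95% interval -0.29 to -0.05), with an unadjusted p of 0.0116 from limma and an adjusted p of 0.208. *Sox9* and *Sox13* were thus the 2 of 9 members whose genotypes stood apart in both batches in 1 direction, a pattern found in 12.1% of all named rows. No member had all 4 null arrays apart from all 4 control arrays, as 4.6% of rows did. *Sox5* gave 7.31 and 7.40 in batch 2 and 7.50 and 7.55 in batch 1 in null cells, against 7.33 and 7.42 in batch 2 and 7.29 and 7.35 in batch 1 in control cells. Its genotypes were apart in batch 1, by 0.20, and not in batch 2, where the difference was -0.02, and the log2 fold change over both was 0.09 (adjusted p = 0.581). *Sox6* differed by 0.06 on the log2 scale (95% interval -0.07 to 0.19).

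The SoxC genes had the smallest fitted differences of the 3 groups between genotypes, with log2 fold changes of 0.02 for *Sox4*, 0.05 for *Sox11* and 0.02 for *Sox12* (adjusted p = 0.922, 0.747 and 0.941). *Sox11* lay at 11.68 to 11.83 on the null arrays and 11.64 to 11.75 on the control arrays. *Sox4* lay at 9.66 to 9.85 on the null arrays and 9.62 to 9.78 on the control arrays. *Sox12*, the member of the group that is a weaker activator, lay at 10.62 to 10.84 on the null arrays and 10.56 to 10.84 on the control arrays. Taken over both batches, the genotypes overlap for all 3. Within batch 1 both null arrays of *Sox11* lay above both control arrays, with a difference of 0.11. The genotypes of *Sox11* overlapped in batch 2, and those of *Sox4* and *Sox12* overlapped in each batch. The 95% intervals of the 8 members that did not pass reach at most 1.22-fold in either direction, that of *Sox13*, and at most 1.17-fold when *Sox13* is set aside. Over the 9 members the median log2 fold change was 0.05, with 7 above 0, beside -0.00 over all named rows, whose 5th and 95th percentiles were -0.16 and 0.17.

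**Figure D2:**
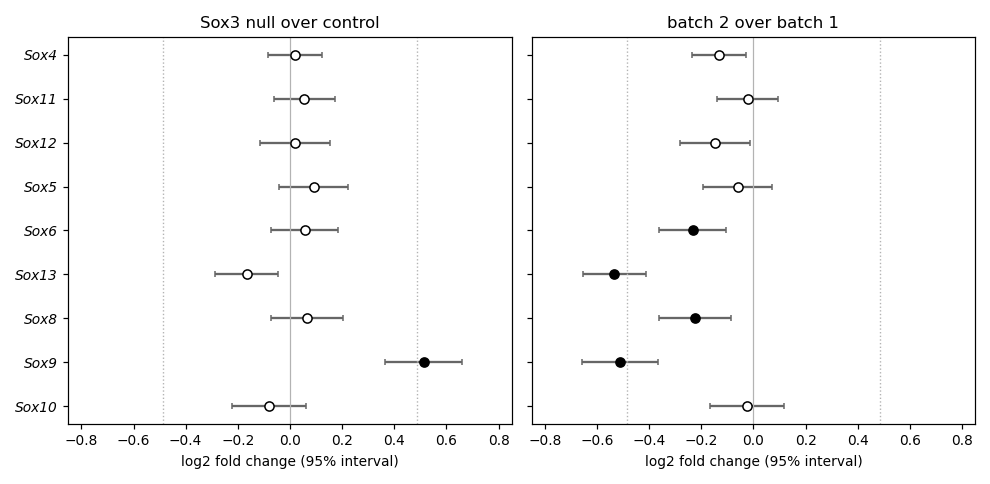
Log2 fold change of each gene with its 95% interval, for *Sox3* null over control on the left and batch 2 over batch 1 on the right. Filled points passed (adjusted p no higher than 0.05), and dotted lines mark 1.4-fold. *Sox9* alone is filled on the left, at 0.51, and *Sox6*, *Sox13*, *Sox8* and *Sox9* are filled on the right.

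The same genes differed more widely between the differentiation batches. All 9 had a lower fitted level in batch 2 than in batch 1, and 4 passed, *Sox13*, *Sox9*, *Sox6* and *Sox8*. Among all named rows 20.2% passed between batches, 9.35% as lower in batch 2, and 33% of rows above the median signal passed in either direction. The median of the members was -0.15, beside 0.00 over all named rows, of which 50.9% were above 0. *Sox13* fell by 0.53 on the log2 scale in batch 2 (standard error 0.05, adjusted p = 1.58e-04), or 1.45-fold. *Sox9* fell by 0.51 (standard error 0.07, adjusted p = 5.03e-04), or 1.43-fold, the same size as its genotype difference. *Sox6* fell by 0.23 (adjusted p = 0.0171) and *Sox8* by 0.22 (adjusted p = 0.0276).

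*Sox13* and *Sox9* also passed within each genotype. Of all named rows 6.87% passed in null arrays alone and 5.49% in control arrays alone. In null cells alone *Sox13* fell by 0.51 (adjusted p = 0.0169) and *Sox9* by 0.42 (0.0449), and in control cells alone *Sox13* fell by 0.55 (0.0147) and *Sox9* by 0.61 (0.00887). The arrays of batch 2 and batch 1 did not overlap for *Sox4*, *Sox6*, *Sox13* and *Sox8*, 4 of 9 members beside 21% of all rows. *Sox6* lay at 7.70 to 7.90 in batch 2 and 7.97 to 8.12 in batch 1. *Sox6* missed the threshold without null replicate 2 or 3 or control replicate 1 or 3 (adjusted p up to 0.0613). It also missed in the plain linear model (0.0642) and passed in 10 of 17 alternatives. When arrays were left out, *Sox8* passed only without null replicate 2 or 4, and without any 1 of the other 6 arrays its adjusted p reached 0.0927. *Sox8* also missed when all rows were tested (0.0667), in the plain linear model (0.0959) and after quantile normalization (0.118). It passed in 6 of 17 alternatives. *Sox4* had -0.13 (adjusted p = 0.0739), *Sox12* -0.15 (0.122), *Sox5* -0.06, *Sox11* -0.02 and *Sox10* -0.02. Beside these values, markers of other cell types passed between batches in both directions. Of the progenitor markers 3 of 6 passed as lower in batch 2 and 0 as higher, and of the fibroblast markers 2 of 6 as lower and 0 as higher. Of the crest markers 3 of 6 passed as lower and 1 as higher, of the neuronal markers 1 of 7 as lower and 2 as higher, and of the pluripotency markers 2 of 6 as lower and 1 as higher. Of the chondrocyte markers and of the oligodendrocyte and astrocyte markers, 1 of 5 each passed as lower. Their part in the result was not tested.

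**Figure D3:**
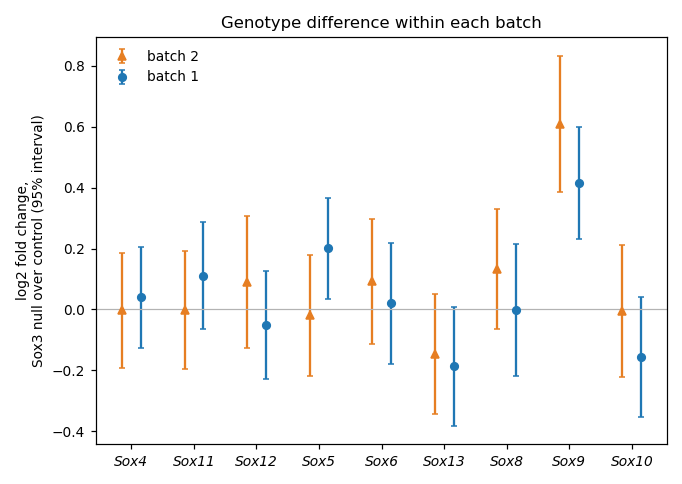
Genotype difference of each gene, as log2 of *Sox3* null over control, within batch 2 (triangles) and batch 1 (circles), with 95% intervals from 4 arrays each. *Sox9* is above 0 in both, at 0.61 in batch 2 and 0.42 in batch 1, *Sox13* is below 0 in both, at -0.15 and -0.19, and for every gene but *Sox9* the interval includes 0 in at least 1 batch.

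Whether the genotype difference itself changed with the batch was tested with a genotype by batch term. No member passed, and 0% of all named rows did in limma, with a smallest adjusted p of 0.862, while 715 rows had an unadjusted p under 0.05. The plain linear model gave 0 rows as well. For *Sox9* the difference was larger in batch 2 by 0.19 on the log2 scale, with an interval of -0.09 to 0.48. *Sox5* had -0.22 (-0.46 to 0.02), and the intervals of all 9 members included 0 and reached 1.39-fold at most.

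The genes on either side of each member gave 18 neighbours, of which 1 passed between genotypes, beside 1.55% of all named rows. *Kiss1*, which encodes the precursor of the kisspeptin hormones and lies beside *Sox13*, lay at 6.80 to 6.92 on null arrays and 7.02 to 7.18 on control arrays. Its log2 fold change was -0.26 (adjusted p = 0.0453), and without any 1 of the 8 arrays it no longer passed (0.0503 to 0.168). The neighbours of *Sox9*, *BC006965* and *Gm11681*, had -0.03 and -0.09, and neither passed. *BC006965* had means of 4.65 in null and 4.68 in control cells, below the median of the olfactory receptor clusters, 4.79. *Gm11681*, at 6.66 and 6.75, and *Kiss1* lay within the range of these clusters. Signals at such levels do not show that a gene is expressed. *Sox6os*, listed beside *Sox6*, had -0.05. Between batches 2 of the 18 passed, *Zcchc3* beside *Sox12* at -0.30 (adjusted p = 0.00271) and *Polr2f* beside *Sox10* at 0.18 (0.0251), beside 20.2% of all named rows.

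Across the 8 arrays, after each batch was centred on its mean, the genes most like *Sox9* among 9919 genes above the median signal were *Apcdd1*, an inhibitor of Wnt signalling (Pearson r = 0.995), and *Trim26* (0.993). *Apcdd1* rose by 0.30 on the log2 scale in null cells (adjusted p = 0.0210), and *Trim26* had 0.09. *Apcdd1* missed the threshold without null replicate 1 or 4 or control replicate 1, 2 or 3 (highest of these 0.0825). It also missed when all rows were tested (0.101), in the plain linear model (0.130) and with the batch as a random block (0.188). The same held without a batch term (0.606) and in each batch alone, and it passed in 9 of 20 alternatives. *Sox13* was most like *Sema4b* (0.978) and *Tyro3* (0.976), and *Sox11* most like *Fyn* (0.998) and *Dsel* (0.996). These are the highest of many correlations over 8 points that share genotype and array, and are given as a description.

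Genes known around these factors were described by group. The lists were chosen with earlier results of these data known and hold *Fezf2*, *Fgfr3* and *Ednrb*, which the study names from these arrays. A count set beside the share over all rows is therefore a description and not a test. Of 20 early neuronal genes, several of them described as SoxC targets, 4 rose in null cells, 1 fell and 15 did not pass, with a median log2 fold change of 0.15 and 15 above 0. *Map2*, a microtubule protein of dendrites, rose by 0.47, *Dll1*, a Notch ligand, by 0.31, and *Nhlh1*, a helix-loop-helix factor of new neurons, by 0.55. *Neurod4*, outside the naming rule and named after its value was seen, rose by 0.32. *Fezf2*, a forebrain zinc finger factor, fell by 0.64 (adjusted p = 9.48e-04) and is among the genes the study names from these arrays. Without null replicate 1 or control replicate 3 only 2 of the 20 passed, and 3 without control replicate 1. *Dll1* missed the threshold without control replicate 1, *Map2* without null replicate 1 or control replicate 3, and *Nhlh1* without null replicate 1 or control replicate 1, 2 or 3. When arrays were left out, *Neurod4* passed only without null replicate 2 or control replicate 2. All 5 missed the threshold in the plain linear model, *Fezf2* with 0.0769, and with the batch as a random block, *Fezf2* with 0.216. *Dll1* also missed when all rows were tested (0.0703). Of 20 alternatives *Fezf2* passed in 15, *Dll1* in 13, *Map2* in 12, *Nhlh1* in 10 and *Neurod4* in 5. Of the list 19 genes lie above the median signal, and 2.31% of such rows passed in either direction.

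Of 19 radial glial and gliogenic genes, 1 rose and 18 did not pass, with a median of -0.01 and 9 above 0. The gene that rose was *Fgfr3*, a growth factor receptor of ventricular zone progenitors and astrocyte precursors, which the study also names. It lay at 9.60 to 9.90 on null arrays and 9.06 to 9.23 on control arrays, a log2 fold change of 0.62 (adjusted p = 9.86e-04). It missed the threshold in the plain linear model (0.0754). *Nfia*, a partner of SOX9 at the start of gliogenesis, had 0.07, and *Fabp7*, the brain lipid binding protein of radial glia, had 0.19 (adjusted p = 0.128). Of 14 cartilage genes on which SOX9 acts with SOX5 and SOX6, none passed, the median was -0.08 and 4 were above 0. The smallest p belonged to *Col11a2* (-0.19, adjusted p = 0.326) and *Col27a1* (-0.16, 0.380), both collagen genes. *Col2a1*, the best known target of SOX9, had 0.02. *Acan*, *Hapln1*, *Matn1* and *Matn4* lay below the 95% level of the olfactory receptor clusters in both genotypes. Of the 14, only 1 had a mean above the highest of these clusters, 8.54, in at least 1 genotype. Of the 19 glial genes 6 did. Signals within that range do not by themselves show that a gene is expressed.

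Of 18 genes of the neural crest and its melanocyte and Schwann cell derivatives, 5 rose in null cells and 13 did not pass, with none lower, and with a median of 0.13 and 13 above 0. *Ets1*, a factor of delaminating crest, rose by 0.49 (adjusted p = 9.06e-04). *Tfap2b*, an AP-2 factor of the crest, rose by 0.71 (0.00765), and *Twist1*, a helix-loop-helix factor, by 0.49 (0.00929). *Ednrb*, the endothelin receptor of migrating crest and a gene the study names from these arrays, lay at 11.20 to 11.31 on null arrays and 10.67 to 10.80 on control arrays and rose by 0.51 (9.22e-04). These 4 passed without any 1 of the 8 arrays. *Tfap2b* and *Twist1* missed the threshold when all rows were tested (adjusted p = 0.0826 each) and in the plain linear model (0.198 and 0.177), *Ets1* and *Tfap2b* with the batch as a random block (0.488 and 0.188), and all but *Ednrb* without a batch term. None of the 4 passed in a single batch. *Pax3*, outside the naming rule and named after its value was seen, rose by 0.29 and passed only without control replicate 2 when arrays were left out. The crest factors *Foxd3*, *Snai1* and *Snai2* had -0.12, -0.13 and 0.27 and did not pass. Of the 18 genes, only 4 had a mean above the highest olfactory receptor cluster in at least 1 genotype. The means of *Ets1*, 8.37 in null and 7.88 in control cells, lay within the range of these clusters. Those of *Tfap2b* (7.95) and *Twist1* (8.26) did so in control cells. Between batches 9 of the 18 passed as lower and 1 as higher in batch 2. Over all named rows 1.15% passed as higher in null cells, and 9.35% passed as lower in batch 2. These shares are given for scale only, because the list was chosen with earlier results of these data known. Of the other 11 Sox genes only *Sox3* passed between genotypes, at -1.31 (adjusted p = 3.87e-05). *Sox2* had 0.21 (0.0825) and *Sox21* 0.14 (0.331).

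**Figure D4:**
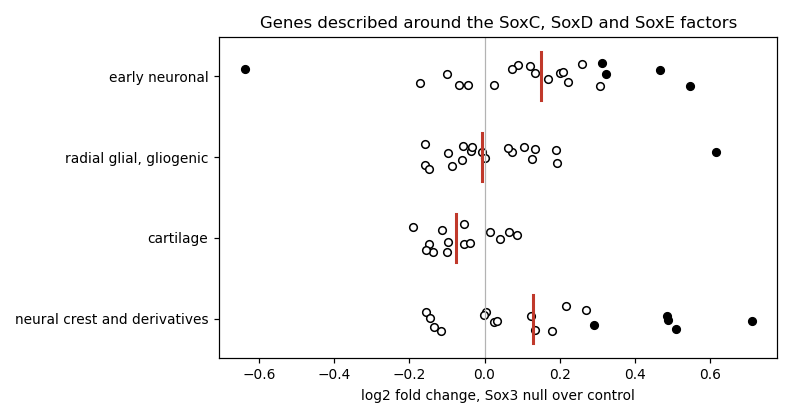
Genotype difference, as log2 of *Sox3* null over control, for the genes of 4 groups known around these factors. Filled points passed (adjusted p no higher than 0.05), red bars mark group medians, and vertical scatter within a group has no meaning. The medians are 0.15 for early neuronal, -0.01 for radial glial and gliogenic, -0.08 for cartilage and 0.13 for neural crest genes.

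In a bulk culture, fewer cells of a type and less RNA per cell cannot be told apart, so markers of the cell types that could hold *Sox9* are given beside it. Of 6 progenitor markers 2 rose in null cells, *Nes* by 0.49 and *Zic1* by 0.36, and the log2 of their summed signal was 14.3 to 14.4 on null arrays and 14.1 to 14.2 on control arrays. Of 6 neural crest markers 2 rose, *Ets1* and *Twist1*, with a summed level of 10.6 to 10.8 on null arrays and 10.3 to 10.6 on control arrays, which overlap. None of 5 measured oligodendrocyte and astrocyte markers passed (9.02 to 9.16 on null arrays, 9.10 to 9.21 on control arrays), and *Gfap* and *Aqp4* lay within the range of 95% of olfactory receptor clusters. None of 5 chondrocyte markers passed (9.34 to 9.61 on null arrays, 9.40 to 9.59 on control arrays), with *Acan* and *Matn1* at that dim level. None of 7 neuronal markers passed (12.5 to 12.6 on null arrays, 12.4 to 12.7 on control arrays). Of 6 pluripotency markers *Nanog* fell by 0.37, near the threshold with an adjusted p of 0.0464. The summed level of the 6 was 11.87 to 12.17 on null arrays and 12.15 to 12.33 on control arrays, which overlap. Of 6 fibroblast markers *Thy1* fell by 0.51, with *Postn* at the dim level. The summed level of these 6 was 9.72 to 10.15 on null arrays and 10.05 to 10.31 on control arrays, which overlap. The calls of *Nes*, *Zic1*, *Nanog* and *Thy1* were not repeated with arrays left out or under other settings. Beside these counts, 1.15% of all named rows passed as higher in null cells and 0.393% as lower. In mean signal, 0 of 5 oligodendrocyte and astrocyte markers and 0 of 6 fibroblast markers lay above the highest olfactory receptor cluster. For the other types it was 1 of 6 crest, 1 of 5 chondrocyte, 3 of 6 pluripotency, 4 of 7 neuronal and 6 of 6 progenitor markers. The part of these cell types in the difference at *Sox9* was not tested.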

How the data were processed

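Total RNA of mouse NP cultures was hybridised to Affymetrix mouse gene arrays, 4 of *Sox3* null and 4 of control cells, 2 of each in each differentiation batch. The authors normalized and summarised the arrays and deposited 1 log2 signal for each transcript cluster. Partek is named in the submitters' processing notes. The normalization, summary method and build are details not given in the sources used here. ES cells were kept on irradiated fibroblasts according to the methods and on gelatine according to the labels. The labels call the samples independent. With batch as a factor, limma's p-values measure the spread between cultures within a batch, with each gene's variance drawn towards that of all rows. They do not measure the spread between independent differentiations, of which there were 2.

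Of 35556 rows, 21789 carry 1 symbol in the platform annotation, 1621 several and 12146 none. Of the first, 21698 matched a gene ID of the GRCm38.p6 table, which was used for names, gene order and the place of promoter windows relative to genes. Coordinates are printed for promoter sequences alone and are of that build. The 23410 named rows entered a fit by limma 3.58.1 (R 4.3.3) with genotype and batch as factors as in the methods, and adjusted by Benjamini and Hochberg. Python 3.11.15 and matplotlib 3.10.9 were used for plots. Precision is limited by the number of arrays. The median residual SD of named rows was 0.0869 on the log2 scale. On simulated arrays over 23410 rows, 93% of 100 rows changed by 0.5 on the log2 scale and 100% of 100 changed by 1 were recovered for *Sox3* null against control, while 6.31% of passing rows had not been changed. The simulated errors were independent and their variances came from limma's own fit. The simulation therefore does not test how well that fit suits the data.

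The brightest cluster with a single symbol stood for a gene. Genes to name were drawn from all members, their measured neighbours, the 2 genes most like each member above the median signal, and from each list up to 4 that passed by smallest p, or 2 where none did. Neighbours and like genes are named for some members, and these, like the markers and list genes named outside the rule, were picked after their values were seen. Members and lists were chosen with earlier results of these data known. Alternatives were all rows, a filter on dim rows, array weights, other estimates of the variance, quantile normalization, averaged clusters, other ways to handle batch, each batch or genotype alone and leaving out each array. Samples with the same number correlated at 0.392 to 0.678 in their deviations from the genotype means, which hold the batch. With batch means removed the correlation was 0.305 in batch 2 and -0.324 in batch 1, so the numbers were not taken to pair samples beyond the batch. The study's qRT-PCR, staining and chromatin data were not analysed here.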

Additional observations from a re-analysis of the deposited data

How the results depend on the processing

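*Sox9* was higher in *Sox3* null cells under all 20 alternatives and passed in 15. Under the plain linear model, without a batch term, with the batch as a random block, in batch 1 alone and in batch 2 alone, 0 of the 9 genes passed between genotypes, and the cause was not tested. When all rows were tested *Sox9* kept an adjusted p of 0.0430, and leaving out each array gave log2 fold changes of 0.45 to 0.56. With a replicate block in place of batch it had 0.51 (adjusted p = 0.00750), 1 of 9 genes passed and 353 rows did in all. Under the replicate block *Kiss1* (0.0863), *Neurod4* (0.0899) and *Pax3* (0.0538) missed the threshold.

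Between batches *Sox13* and *Sox9* passed under all 17 alternatives. The count of genes was 2 in *Sox3* null arrays alone, 2 in control arrays alone and 2 to 5 when each array was left out, against 4. The share of all named rows was 6.87%, 5.49% and 14.8% to 20.5% in these settings, against 20.2%. Signs near 0 turned, and the cause was not tested. Between genotypes *Sox4* had -0.0056 after renewed quantile normalization, -0.0026 in batch 2 alone and -0.0003 to 0.0372 without each array. *Sox12* had -0.0524 in batch 1 alone and -0.029 to 0.0575 without each array, and *Sox8* had -0.0021 in batch 1 alone. In batch 2 alone *Sox11* had -0.0022 and *Sox5* -0.0189. Between batches *Sox5* had 0.0159 and *Sox10* 0.0482 after quantile normalization. *Sox10* had 0.0505 in null arrays alone, *Sox11* 0.0351 and *Sox5* 0.0494 in control arrays alone, and without each array *Sox10* ran from -0.0731 to 0.0299 and *Sox11* from -0.0543 to 0.0096.

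Over all rows, 362 passed between genotypes, against 93 when unnamed rows were included, 47 in the plain linear model, 37 without a batch term, 125 with a random block, 18 in batch 1 alone and 23 in batch 2 alone. Leaving out an array gave 182 (control replicate 1) to 321. *Sox5* and *Sox10* were not tested where rows below the median signal were left out.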
